A study of Sus scrofa with 12 samples.

Results

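The miR-34 and miR-449 family was read in the ovaries of sows with small litter size (SLS) and sows with large litter size (LLS). Members were chosen by name, as mature miRNAs whose names begin with miR-34a, miR-34b, miR-34c or miR-449, and 2 of the 457 listed pig miRNAs qualified, miR-34a and miR-34c. No row of the table is named miR-34b or miR-449. The family was selected on its readout, because miR-34c was lower in the 3 LLS ovaries than in the 3 SLS ovaries, so the LLS and SLS values of miR-34c are a description here and carry no test. Each of the 6 ovaries was a left ovary, frozen at slaughter, of a sow from 1 commercial piggery on day 4 after delivery 4. The SLS group (ovaries ZD2, ZD3 and ZD12) averaged 8.48 ± 0.53 piglets per litter and the LLS group (ZD5, ZD7 and ZD8) 16.19 ± 0.43, errors whose kind the labels leave unnamed. The methods of the study give errors as SEM in general. Each ovary gave 1 small RNA library, deposited as RPM, the reads of a miRNA scaled to the library total, and 1 library of total RNA without ribosomal RNA, deposited as FPKM, a level per gene length.

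The miR-34 and miR-449 families share a seed, the stretch near the 5′ end with which a miRNA pairs to messages, and so they are thought to repress overlapping sets of genes. They are known to restrain genes of the cell cycle and of cell survival. The relatives miR-34b, miR-34c and miR-449 are known from cells with many motile cilia and from germ cells.

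The mature sequences are printed because the shared seed defines the family. They were taken from the deposited miRNA table, are written 5′ to 3′, and carry the seed, bases 2 to 8, in capitals.
miR-34a: tGGCAGTGtcttagctggttgt
miR-34c: aGGCAGTGtagttagctgattgc
Of the 457 miRNAs, 2 carry this seed at bases 2 to 8, and they are these members. The pair is identical at 18 aligned bases, differs at 4, and is offset by 1 gap that makes miR-34c 23 bases long and miR-34a 22. The first base differs (T1A, counted from the 5′ end, with the base of miR-34a first), next to the seed but outside it.

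The members come from separate places in the Sscrofa11.1 genome. The sequence of miR-34a matched chr6:69603668-69603689 on the minus strand, inside no annotated gene. The nearest annotated genes are LOC110261090, a long noncoding RNA of the same strand that ends 6685 bases on its 5′ side, and GPR157, a receptor gene 22012 bases away on the other side. The sequence of miR-34c matched chr9:39280290-39280312 on the plus strand, within the annotated hairpin MIR34C-1 (39280278 to 39280357). The miR-34c sequence lies in an intron of C9H11orf88. On the opposite strand it falls within an exon of some, but not all, annotated transcripts of BTG4, a gene of the maturing oocyte. The deposited table names 2 precursors for miR-34c, and the genome held 1 exact match.

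The small RNA libraries held between 3537619 and 9854086 reads, and 3 reads were worth 0.304 to 0.848 RPM. Ovary ZD8 of the LLS group stood apart from the other 5 in both kinds of library. Its median tested miRNA was at 5.17 on the log2(RPM + 1) scale against 5.91 to 6.53 elsewhere. The summed FPKM of 7 luteal genes, among them STAR and HSD3B1 of progesterone synthesis, was 124 in ZD8 and 9167 to 12191 in the others, whereas the summed FPKM of 8 oocyte genes was 126 in ZD8 and 6.52 to 22.8 in the others. In whole ovaries, fewer cells of a type and less RNA per cell cannot be told apart.

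miR-34a was the more abundant member in every ovary. In the SLS ovaries it stood at 105 RPM in ZD2, 117 RPM in ZD3 and 82.0 RPM in ZD12, from 613, 415 and 808 reads. In the LLS ovaries it stood at 126 RPM in ZD5, 129 RPM in ZD7 and 37.1 RPM in ZD8, from 777, 875 and 322 reads. The LLS group thus held both the highest values and the lowest one, and the groups overlapped. The means were 101 ± 17.9 RPM in SLS and 97.4 ± 52.3 RPM in LLS (SD, n = 3 each). On the log2(RPM + 1) scale the difference, LLS minus SLS, was -0.24 with an SE of 0.56 and a 95% interval from -1.53 to 1.05 (limma with Benjamini-Hochberg adjustment over 353 miRNAs, adjusted p = 0.997). The exact two-sided permutation test on the same values gave p = 1, where 0.1 is the smallest that 3 ovaries against 3 can give. Without ZD8 the LLS mean was 128 RPM and the log2 difference turned to 0.34. Across all 353 tested miRNAs the same fit called 0 (percent called 0), 0 had an unadjusted p under 0.05, and edgeR and DESeq2 on the recovered reads called 0 as well.

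miR-34c was lower than miR-34a. Among the SLS ovaries its highest level was 2.503 times its lowest, against 1.43 times for miR-34a, whereas its SD in RPM was smaller. Among the LLS ovaries the order was the other way, 1.57 times for miR-34c and 3.48 times for miR-34a. In the SLS ovaries miR-34c stood at 47.8 RPM in ZD2, 44.9 RPM in ZD3 and 19.1 RPM in ZD12, from 279, 159 and 188 reads. In the LLS ovaries it stood at 14.8 RPM in ZD5, 12.1 RPM in ZD7 and 19.0 RPM in ZD8, from 91, 82 and 165 reads. ZD2 and ZD3 were far above the other 4 ovaries, while ZD12 and ZD8 were level with each other. The group means were 37.3 ± 15.8 RPM in SLS and 15.3 ± 3.47 RPM in LLS (SD, n = 3 each), a ratio of 2.44 and a log2 difference of -1.15. Without ZD12 the SLS mean was 46.4 RPM, and without ZD8 the LLS mean was 13.4 RPM.

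**Figure D1:**
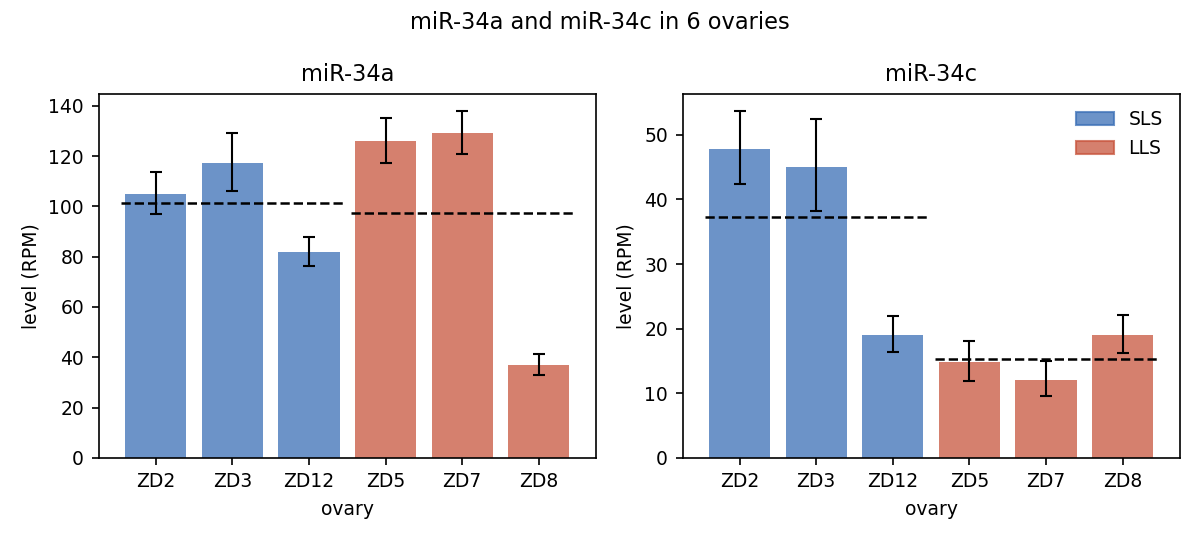
Level of miR-34a (left) and miR-34c (right) in RPM, from 0, in each SLS (blue) and LLS (red) ovary; bars are single libraries, error bars are exact Poisson 95% intervals of the reads (counting error only) and dashed lines are group means. miR-34a is lowest in ZD8 (37.1 RPM), and the miR-34c bars of ZD12 (19.1 RPM) and ZD8 (19.0 RPM) reach the same height.

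The 2 groups of miR-34c were separated by 0.0878 RPM, the distance from ZD12, the lowest SLS ovary, to ZD8, the highest LLS ovary. ZD8 fell 0.763 of a read short of the level of ZD12. The exact Poisson 95% intervals of the read counts, which cover counting error only, ran from 16.4 to 22.0 RPM in ZD12 and from 16.2 to 22.1 RPM in ZD8, so the order of this pair was not resolved at this depth. Of the 353 tested miRNAs, 6 were lower in LLS without overlap (percent called 1.70), and miR-34c was in this count by the way it was chosen. Over the 10 miRNAs without overlap in either direction, the gap on the log2(RPM + 1) scale was smallest in miR-34c, at 0.0063, next came miR-15b at 0.027, and the widest was in miR-375, at 0.32.

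The separation also turned on how the libraries were scaled, which was examined after the values were seen. The log2 ratio of ZD12 to ZD8 was 0.0066 in the deposited RPM and 0.012 when only reads on listed miRNAs formed the total. It was -0.26 with TMM factors, -0.27 with DESeq2 size factors, -0.76 with each library centred on its median and -0.64 after quantile normalization. ZD8 thus stood above ZD12 in those 4 scalings and the groups overlapped, while ZD5 and ZD7 remained below each SLS ovary in every scaling. The number of miRNAs lower in LLS without overlap was 6 with reads on listed miRNAs, 10 with TMM factors, 8 with DESeq2 size factors, 7 with median centring and 8 with quantile normalization. Read against the median tested miRNA of its own library, miR-34c was at -0.85 log2 units in ZD8, at -0.35 to -1.58 in the SLS ovaries, and at -2.55 and -2.49 in ZD5 and ZD7. By rank from the most abundant miRNA, miR-34c was at 206 in ZD8 and at 226 in ZD12.

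**Figure D2:**
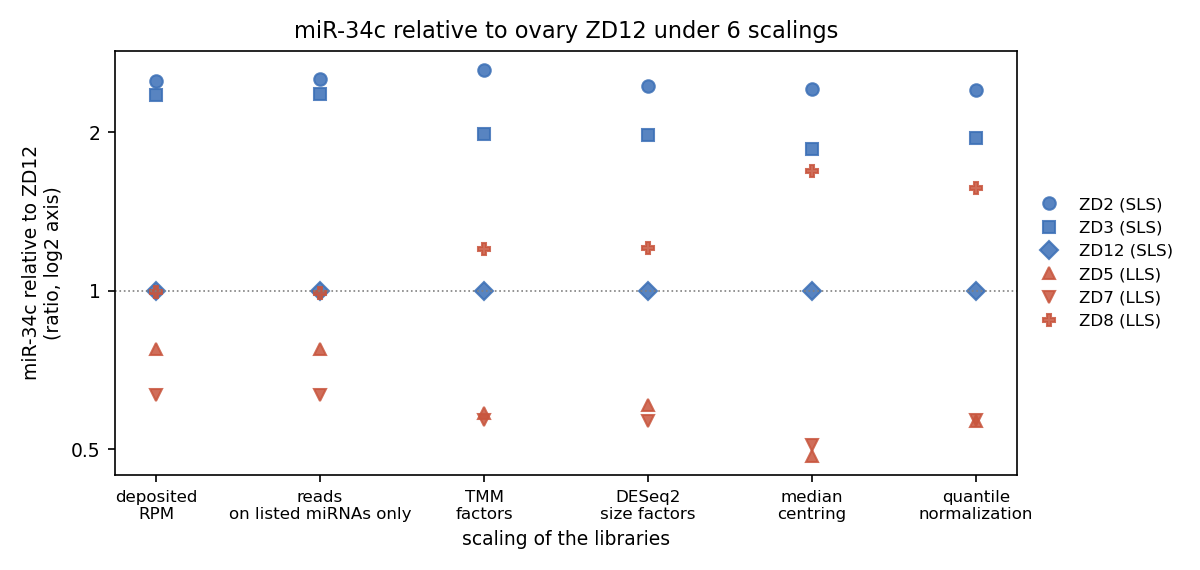
miR-34c in each ovary relative to ZD12 (ratio on a log2 axis) under 6 scalings of the libraries, with SLS ovaries in blue and LLS ovaries in red. ZD8 lies on ZD12 in the first 2 scalings and above it in the other 4, while ZD5 and ZD7 stay below the dotted line at 1.

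The balance between the members differed more among ovaries than their sum did. miR-34c made up 31.3% of the pair's RPM in ZD2, 27.7% in ZD3 and 18.9% in ZD12. In the LLS ovaries it made up 10.5% in ZD5, 8.57% in ZD7 and 33.9% in ZD8. The LLS group therefore held the 2 lowest shares and the highest share, and the groups overlapped. A share within a library is unchanged by any scaling that multiplies the whole library by 1 factor, which quantile normalization does not do. The summed RPM of the pair was 139 ± 32.9 in SLS and 113 ± 49.1 in LLS (SD, n = 3 each), with ZD8 lowest at 56.1.

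**Figure D3:**
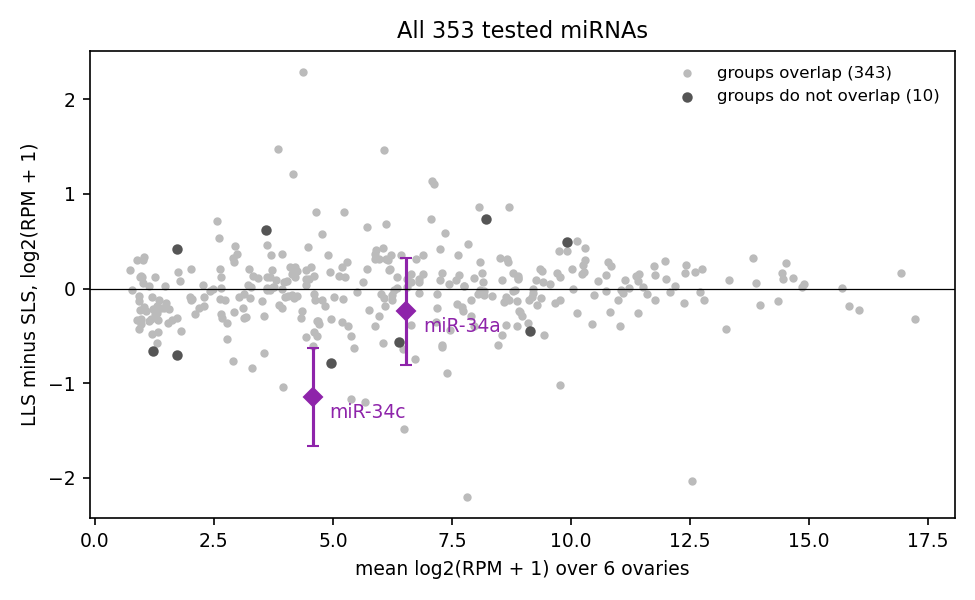
LLS minus SLS difference on the log2(RPM + 1) scale against the mean log2(RPM + 1) of the 6 ovaries for the 353 tested miRNAs, with the 2 members as purple diamonds (bars, SE). miR-34a lies at -0.24, amid the cloud, and miR-34c, chosen for its direction, lies at -1.15 near its lower edge.

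The miRNAs with the pattern most like miR-34c over the 6 ovaries did not include its relative. By Pearson r on log2(RPM + 1), the 5 closest of 351 were miR-9841-3p (0.83), miR-217 (0.82), miR-452 (0.75), miR-7136-5p (0.73) and miR-7135-3p (0.73), whereas miR-34a had an r of 0.08. These values come from 6 libraries and were picked as the highest of 351, whose median r was -0.0017, so no p is given. miR-452 stood at 35.9 RPM in ZD2, 43.8 RPM in ZD3 and 14.3 RPM in ZD12, and at 27.2 RPM in ZD5, 16.7 RPM in ZD7 and 13.5 RPM in ZD8. miR-9841-3p stood at 16.4, 24.3 and 4.16 RPM in ZD2, ZD3 and ZD12, and at 9.73, 4.72 and 5.41 RPM in ZD5, ZD7 and ZD8. Reads were few for some of them, 2 to 9 per library for miR-217, 6 to 20 for miR-7136-5p and 21 to 32 for miR-7135-3p, against 32 to 96 for miR-9841-3p and 113 to 210 for miR-452. What the 5 shared with miR-34c was the high level in ZD2 and ZD3 relative to ZD12, and in each of the 5 the LLS and SLS ovaries overlapped.

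**Figure D4:**
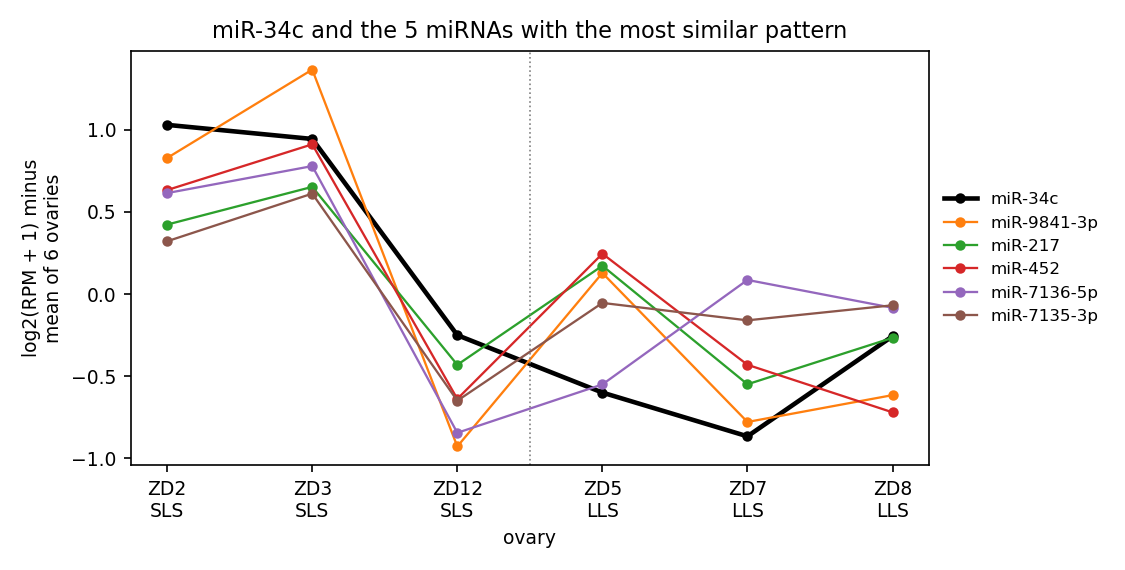
Level of miR-34c (black) and of the 5 miRNAs with the highest Pearson r with it, as log2(RPM + 1) minus each miRNA's mean over the 6 ovaries; lines only join the points of 1 miRNA. All 6 are high in ZD2 and ZD3, and miR-34c alone is lower in each LLS ovary than in ZD12, by 0.0063 in ZD8.

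The genes around the miRNAs had low values in the gene libraries. MIR34C-1, a hairpin of 80 bases, was listed at 0 FPKM in 5 ovaries and at 0.387 FPKM in ZD8, although its mature product had 82 to 279 reads in the small RNA libraries of the same ovaries. These 0 values therefore say nothing of whether the hairpin was transcribed. C9H11orf88, the gene whose intron holds it, was listed at 0 in every ovary except ZD12, at 0.148 FPKM. BTG4, on the opposite strand, was listed at 0 in ZD2, and stood at 0.0251 FPKM in ZD3 and 0.499 FPKM in ZD12, and at 0.0677 FPKM in ZD5, 0.0569 FPKM in ZD7 and 1.76 FPKM in ZD8. Its highest levels were in ZD12 and ZD8, the ovaries with the highest summed oocyte genes (22.8 and 126 FPKM), and the part of oocytes in the level of BTG4 was not tested. The libraries of total RNA were prepared so as to keep the strand, but whether the gene counts used it is not given in the sources used here, so reads of BTG4 and of the miR-34c locus may not be separable.

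LOC110261090, next to miR-34a, stood at 0.295, 0.335 and 0.445 FPKM in ZD2, ZD3 and ZD12 and at 0.457, 0.710 and 1.29 FPKM in ZD5, ZD7 and ZD8. Each LLS ovary was above each SLS ovary, the closest pair being ZD12 and ZD5, and the exact two-sided permutation test gave p = 0.1, the smallest possible here. This RNA did not reach the filter of 1 FPKM in 3 libraries, and 5.12% of the genes that did showed no overlap in either direction. Its highest level and the lowest level of miR-34a were both in ZD8. GPR157 stood at 1.11 to 1.58 FPKM in SLS and 0.733 to 1.998 FPKM in LLS, with a log2(FPKM + 1) difference of 0.02 (SE 0.30).

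The 36 listed genes reported as targets of miR-34 or miR-449 were next read in the gene libraries. In the 33 of them that were tested and have an annotated 3′ UTR, 22 (66.7%) held CACTGCC, the reverse complement of the seed, on the message strand, against 14.7% of all 11571 such tested genes. The longer form CACTGCCA, which contains the first, was in 11 (33.3%) against 4.74%. A single transcript of each gene was read, that with the longest coding sequence and, at a tie, the longest 3′ UTR. The median 3′ UTR was 1544 bases in the targets and 990 bases in all, and longer UTRs hold more matches of any kind. Seed matches may have helped to name these genes as targets, so their larger share is not a finding of these data. A match is a description of letters in the pig sequence, not a site shown to be used.

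Of 31 matches in the listed targets, 11 are of the longer form CACTGCCA, and 7 of these are printed. They show how the pig messages could face the seed, which is common to both members. Each line gives 30 bases of the 3′ UTR on the message strand, with the match in capitals.
E2F3: taatttgtaaaCACTGCCAgaatattttct
CCNE2: ttcagaagtttCACTGCCAttctctgattt
GMNN: cttgagaaaaaCACTGCCAaagtttacctc
MDM4: taagactgaatCACTGCCAagcattggaaa
MET: ggaaatgtcctCACTGCCAagacaccccac
AXL: cccaagctaggCACTGCCAcaggggaaccc
LEF1: ataaagacaatCACTGCCAaaccccctttc
The match in E2F3, a cell cycle transcription factor, lies at chr7:15869665-15869672 on the plus strand. That in CCNE2, cyclin E2, lies at chr4:41820561-41820568 on the plus strand, and that in GMNN, an inhibitor of DNA replication licensing, at chr7:19595115-19595122 on the plus strand. MDM4, a regulator of cell survival, has its match at chr9:65217031-65217038 on the plus strand. MET, the receptor of hepatocyte growth factor, has it at chr18:29426612-29426619 on the minus strand. AXL, a receptor tyrosine kinase, has it at chr6:49276482-49276489, and LEF1, a transcription factor of Wnt signalling, at chr8:113943095-113943102, both on the plus strand. All lie in 3′ UTRs of Sscrofa11.1.

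Of the 36 target genes, 35 passed the filter, and 0 of them had an unadjusted p under 0.05, against 216 of 12260 tested genes (percent called 1.76). Across all genes, limma called 0 (percent called 0) at the adjusted threshold. Without ZD8 the unadjusted count rose to 721 genes with 0 of the targets among them and 21 genes were called, and with array weights it rose to 1252 genes, of the targets CDK4 alone, and 13 were called, in both cases with 0 targets called. INHBB alone of the targets had an unadjusted p under 0.05 by limma without ZD12, among 149 genes. CD44 alone did so without ZD7, among 326 genes, again with 0 targets called. The groups did not overlap in 1 of the 35, against 628 of 12260 in either direction (percent called 5.12). The median log2(FPKM + 1) difference, LLS minus SLS, was 0.09 in the targets, 23 above 0 and 12 below, and 0.02 over all genes tested. Without ZD8 both medians turned, to -0.12 and -0.10, with 9 targets above 0 and 26 below. Every tested gene named below had an adjusted p of 0.999 by limma.

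The gene without overlap was CD44, a cell surface receptor of hyaluronan. It stood at 19.1 FPKM in ZD2, 18.5 FPKM in ZD3 and 15.1 FPKM in ZD12, and at 12.3 FPKM in ZD5, 15.0 FPKM in ZD7 and 4.27 FPKM in ZD8. ZD12 and ZD7 were within 1 FPKM of each other, and ZD8 was far below the rest. The log2 difference was -0.83 (SE 0.42, exact two-sided permutation p = 0.1, the smallest possible), and -0.34 without ZD8. The 3′ UTR of the pig CD44 transcript that was read, of 3126 bases, held no CACTGCC.

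Among the cell cycle targets, 5 of 10 differences were above 0 and 5 below, with and without ZD8, and 0 passed the test. CDK4, the kinase that drives G1 with D cyclins, was the most abundant, at 67.4 ± 21.2 FPKM in SLS and 60.8 ± 26.3 FPKM in LLS (SD, n = 3, as in the values that follow), a log2 difference of -0.18 (SE 0.40, and -0.50 without ZD8). CCND1, its partner cyclin D1, stood at 26.9 ± 4.04 and 21.3 ± 11.9 FPKM (-0.48, SE 0.44, and 0.016 without ZD8), and the lowest ovary was ZD8 at 8.94 FPKM. MYC, a growth transcription factor, stood at 20.7 ± 5.56 and 21.4 ± 7.05 FPKM (0.03, SE 0.33, and -0.21 without ZD8). The differences of these genes were near or within the SE, and the groups overlapped in each.

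Of the 6 survival and chromatin targets, 5 were above 0 and 1 below, and 0 passed. Without ZD8 all 6 were below 0, and the median went from 0.19 to -0.19. HDAC1, a histone deacetylase, stood at 36.0 to 45.5 FPKM in SLS and 26.8 to 44.8 FPKM in LLS (-0.26, SE 0.29, and -0.072 without ZD8). YY1, a transcription factor, stood at 15.0 ± 1.90 and 16.4 ± 5.02 FPKM (0.09, SE 0.29). MDM4 stood at 9.42 ± 2.75 and 12.4 ± 7.47 FPKM (0.25, SE 0.42). In YY1 and MDM4 the highest ovary was ZD8, at 21.9 and 20.8 FPKM, and without it the differences were -0.12 and -0.17.

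The receptor and ligand targets held 6 differences above 0 and 2 below, and 0 of 8 passed. Without ZD8 the count turned to 2 above and 6 below. PDGFRA, a growth factor receptor of stroma and theca, stood at 115 ± 11.3 FPKM in SLS and 141 ± 68.8 FPKM in LLS (0.19, SE 0.39, and -0.18 without ZD8). KIT, the receptor of stem cell factor, stood at 145, 170 and 74.5 FPKM in ZD2, ZD3 and ZD12 and at 180, 130 and 27.1 FPKM in ZD5, ZD7 and ZD8 (-0.50, SE 0.69). Its lowest levels were in ZD8 and ZD12, and without ZD8 the difference was 0.32. AXL stood at 60.4 ± 6.92 and 66.8 ± 24.3 FPKM (0.09, SE 0.33, and -0.18 without ZD8).

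For Notch and Wnt signalling, 6 of 7 listed targets were tested, 4 above 0 and 2 below, and 0 passed. Without ZD8 it was 1 above and 5 below. NOTCH2, a receptor, stood at 61.9, 47.1 and 64.8 FPKM in ZD2, ZD3 and ZD12 and at 42.9, 46.0 and 163 FPKM in ZD5, ZD7 and ZD8 (0.25, SE 0.51). Without ZD8, where it was highest, the difference was -0.36. JAG1, a Notch ligand, stood at 23.8 ± 2.14 and 24.7 ± 7.24 FPKM (0.02, SE 0.29, and -0.20 without ZD8), and NOTCH1 at 13.9 to 19.5 and 11.5 to 16.8 FPKM (-0.25, SE 0.28, and -0.15 without ZD8).

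The 5 remaining targets held 3 differences above 0 and 2 below (1 and 4 without ZD8), and 0 passed. LDHA, lactate dehydrogenase A, stood at 68.9 ± 8.40 FPKM in SLS and 52.2 ± 25.5 FPKM in LLS (-0.53, SE 0.43, and -0.042 without ZD8), with 23.3 FPKM in ZD8 and at least 61.7 FPKM elsewhere. VAMP2, a protein of vesicle fusion, stood at 7.04 to 13.1 FPKM in 5 ovaries and at 45.5 FPKM in ZD8 (0.55, SE 0.62, and -0.25 without ZD8). PPP1R10, a regulatory subunit of protein phosphatase 1, stood at 9.29 to 12.6 FPKM in SLS and 10.7 to 19.9 FPKM in LLS (0.28, SE 0.31, and 0.026 without ZD8). In each of these 3 genes the ovary farthest from the others was ZD8.

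**Figure D5:**
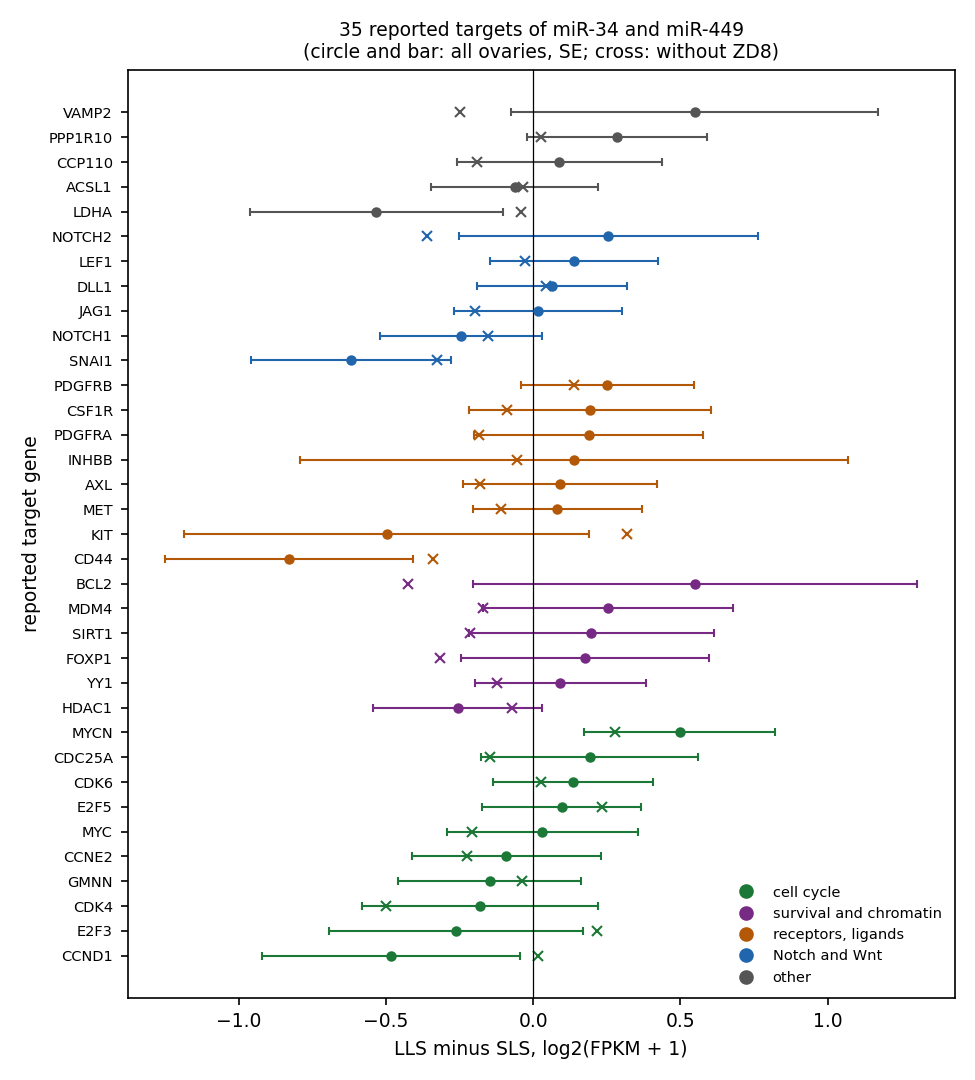
LLS minus SLS difference on the log2(FPKM + 1) scale for the 35 tested target genes, grouped by role in color; circles with bars are differences with SE over 6 ovaries and crosses are the differences without ZD8. Circles scatter on both sides of 0 (23 above, 12 below), and many crosses lie on the other side of 0 from their circle, as for NOTCH2 (0.25 and -0.36).

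Over all tested genes with an annotated 3′ UTR, the 1702 with CACTGCC had a median difference of 0.04 and the 9869 without it 0.01. The 303 genes with 2 or more matches had a median of 0.07. Without ZD8 the medians were -0.11, -0.10 and -0.11. The median 3′ UTR was 835 bases without a match and 2293 bases with a match, and its part in these medians was not tested.

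Of 20 listed genes of multiciliated cells, where miR-34b, miR-34c and miR-449 are known to be abundant, 3 passed the filter. These were TPPP3, a tubulin-binding protein, at 1.29 to 5.28 FPKM over the 6 ovaries, RFX3, a transcription factor of cilia, at 1.02 to 7.62 FPKM, and DEUP1, which serves centriole amplification, at 0.856 to 3.85 FPKM. RFX2 and SPAG6 reached 3.03 and 1.58 FPKM in ZD8, and the other 15 listed genes stayed under 1 FPKM in each ovary. FOXJ1, the regulator of motile cilia, did not exceed 0.108 FPKM, MCIDAS, which starts the multiciliated program, did not exceed 0.102 FPKM, and DNAI1, a dynein chain of motile cilia, was listed at 0 in each ovary. MCIDAS, 1 of the 20 and the only one without overlap (5.12% of tested genes showed none), was higher in each LLS ovary than in each SLS ovary (0.0719 to 0.102 FPKM against 0.0265 to 0.0517 FPKM), far below the filter. CDC20B, whose intron holds the miR-449 genes in mammals, did not exceed 0.0236 FPKM. The log2 differences of the tested genes were 0.41 for RFX3 (SE 0.53), 0.15 for DEUP1 (SE 0.41) and -0.10 for TPPP3 (SE 0.40), with 0 past the test, and each turned sign without ZD8, to -0.22, -0.22 and 0.30. The summed FPKM of the 20 genes was 7.52 to 10.7 in 5 ovaries and 21.8 in ZD8.

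Marker genes of ovarian cell types gave the setting of these values. The ovaries other than ZD8 carried corpus luteum transcripts at high level, with STAR between 2542 and 5418 FPKM, and STAR was at 26.4 FPKM in ZD8. The luteal sum rests on STAR, HSD3B1, CYP11A1 and SCARB1. LHCGR stood at 10.4 FPKM in ZD8 and 22.5 to 70.5 FPKM elsewhere, PTGFR at 17.0 FPKM and 57.8 to 148 FPKM, and PRLR, the prolactin receptor, went the other way, at 1.16 FPKM in ZD8 and at most 0.167 FPKM elsewhere. Of the granulosa genes, CYP19A1, the aromatase, did not exceed 0.0137 FPKM, whereas FOXL2, a transcription factor, stood at 6.11 to 37.8 FPKM, INHA, the inhibin alpha subunit, at 66.4 FPKM in ZD8 and 162 to 726 FPKM elsewhere, and AMHR2, the receptor of anti-Müllerian hormone, at 1.51 to 6.16 FPKM. FSHR, the receptor of follicle-stimulating hormone, and AMH were highest in ZD8, at 10.8 and 12.01 FPKM, while the summed FPKM of the 6 granulosa genes was lowest there, at 133 against 174 to 774. INSL3 of theca cells stood at 298 FPKM in ZD8, 45.1 FPKM in ZD12 and 2.28 to 11.6 FPKM in the other 4, and ZP3 of the egg coat at 40.4, 5.38 and 0.179 to 2.07 FPKM in the same order. ZD12 was thus the second highest ovary for both genes, and it was next to ZD8 in miR-34c. The part of these cell types in the level of miR-34c was not tested.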

How the data were processed

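Mature miRNAs and genes were read in 6 ovaries, 1 library of each kind per sow, so p-values measure the spread between 3 sows per group. The authors deposited miRNA levels as RPM, reads scaled to the library total under the name TPM, and gene levels as FPKM. The submitters' processing notes name HISAT2, BWA and Sscrofa11.1. The counter of genes is not given in the sources used here. Whole reads were recovered from all 2618 RPM values above 0 (100%, within 0.001 of a read). Depth of the gene libraries was not computed here.

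Testing used limma 3.58.1 (trend) in R 4.3.3 on log2(value + 1) for the 353 miRNAs and 12260 genes that reached 1 RPM or 1 FPKM in 3 or more libraries. A call needed an absolute log2 difference over 1 and, after Benjamini-Hochberg adjustment, p under 0.05. On the log2(value + 1) scale a fold change of a low feature is understated. Exact permutation p-values came from the difference of group means of log2(value + 1) over all 20 assignments of the ovaries. SciPy 1.17.1 gave the Poisson intervals. Alternatives were a pseudocount of 0.5 RPM or 0.1 FPKM, no filter, quantile normalization, median centring, TPM rescaling, array weights, edgeR 4.0.16, DESeq2 1.42.0 and leaving out each ovary. The fit was tested on simulated data. At a dispersion of 0.3, 46 of 73 miRNAs with a simulated log2 change of 2 were recovered, and 75 of 80 with one of 3. Of the 357 tested, 2 unchanged miRNAs were called. No simulated ovary was set apart as ZD8 was, and no smaller change was simulated. These shares therefore do not give the power of the fit in the real ovaries.

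The members and gene lists were chosen with earlier results of these data known. The text names both members, the 5 miRNAs most correlated with miR-34c, host or nearest genes, and in each list the genes without overlap or with an unadjusted p under 0.05 and the 3 with the highest mean FPKM. Of the cell type markers, given to show the setting, only some are named. CCNE2, E2F3, GMNN, LEF1 and MET are named for their printed matches, and FOXJ1, DNAI1 and CDC20B for their roles, after their values were seen. INHBB is named for its unadjusted p without ZD12. Some listed genes and seed matches, 1 pathway list among them, are not reported here.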

Additional observations from a re-analysis of the deposited data

How the results depend on the processing

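The limits of these data are 3 ovaries per group, the distance of ZD8 from the others, and, for miR-34c, as few as 82 reads in a library. miR-34a kept a log2 difference between -0.24 and -0.13 with quantile normalization, median centring, the other pseudocount, no filter, edgeR and DESeq2, turned to 0.11 with array weights, and ranged from -0.54 to 0.34 when 1 ovary was left out, with the change of sign without ZD8. miR-34c, chosen for its direction, ranged from -1.45 to -1.02 over the same settings with array weights included and from -1.56 to -0.92 when 1 ovary was left out. The log2 ratio of its lowest SLS to its highest LLS ovary, 0.0066 as deposited, turned to -0.26 with TMM factors, -0.27 with DESeq2 size factors, -0.76 with median centring and -0.64 with quantile normalization, all chosen after seeing the data. The number of miRNAs called was 0 under each alternative, with 0 to 11 at an unadjusted p under 0.05. The number of genes called was 0, except 13 with array weights and 21 without ZD8, and its range when 1 ovary was left out was 0 to 21. Pearson r with miR-34c, when 1 ovary was left out, ranged from 0.74 to 0.93 for miR-9841-3p, 0.72 to 0.97 for miR-217, 0.61 to 0.89 for miR-452, 0.59 to 0.91 for miR-7136-5p and 0.56 to 0.92 for miR-7135-3p. No paired analysis was possible because the groups share no replicate numbers.

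Of the 20 genes given with a log2 difference, 4 kept its sign under each alternative and 13 changed it without ZD8. With array weights the sign turned in 14 of them, to 0.032 for CCND1, -0.13 for MYC, -0.12 for YY1, -0.095 for MDM4, 0.46 for KIT, -0.19 for PDGFRA, -0.20 for AXL, -0.39 for NOTCH2, -0.17 for JAG1, -0.31 for VAMP2, -0.023 for PPP1R10, -0.13 for RFX3, -0.26 for DEUP1 and 0.24 for TPPP3. Of those that kept it, LDHA went to -0.044 with array weights and ranged from -0.83 to -0.042 when 1 ovary was left out, HDAC1 went to -0.033 and ranged from -0.43 to -0.072, NOTCH1 ranged from -0.41 to -0.10 and CD44 from -1.14 to -0.34. CDK4, whose sign turned only when 1 ovary was left out, went to -0.64 with array weights. PPP1R10 kept its sign in each fit without 1 ovary, from 0.026 to 0.45. With a pseudocount of 0.1 FPKM it turned in GPR157, to -0.0012. When 1 ovary was left out, the sign turned in 15 of them, with ranges of -0.18 to 0.31 for AXL, -0.87 to 0.016 for CCND1, -0.50 to 0.10 for CDK4, -0.22 to 0.42 for DEUP1, -0.17 to 0.23 for GPR157, -0.20 to 0.20 for JAG1, -1.02 to 0.32 for KIT, -0.17 to 0.59 for MDM4, -0.21 to 0.23 for MYC, -0.36 to 0.59 for NOTCH2, -0.18 to 0.43 for PDGFRA, -0.22 to 0.82 for RFX3, -0.42 to 0.30 for TPPP3, -0.25 to 1.02 for VAMP2 and -0.12 to 0.28 for YY1. The cause of these changes was not tested.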

Other observations

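Of 33 tested markers in 9 lists of ovarian cell types, 4 did not overlap between the groups (12.1%), against 628 of 12260 tested genes (5.12%), and their values by group follow. EPCAM, an epithelial adhesion protein, stood at 0.312, 0.339 and 1.28 FPKM in ZD2, ZD3 and ZD12 and at 27.8, 9.73 and 2.31 FPKM in ZD5, ZD7 and ZD8, and it was higher in each LLS ovary. The other 3 tested epithelial genes had log2 differences below 0 and overlapped. KRT8 stood at 27.4, 2.67 and 11.2 FPKM in SLS and 1.77, 2.15 and 12.1 FPKM in LLS, KRT19 at 16.4, 2.98 and 5.67 FPKM and 0.735, 1.01 and 5.21 FPKM, and CDH1 at 3.69, 1.16 and 2.83 FPKM and 1.48, 0.816 and 6.10 FPKM. INHA stood at 553, 376 and 726 FPKM in SLS and at 285, 162 and 66.4 FPKM in LLS. LHCGR, the receptor of luteinizing hormone, stood at 27.8, 70.5 and 46.1 FPKM in SLS and at 22.5, 24.2 and 10.4 FPKM in LLS. All 6 tested luteal genes had log2 differences below 0, and LHCGR alone did not overlap. Without ZD8, 3 were above 0 and 3 below. The log2 differences were then 0.61 for STAR, 0.47 for SCARB1 and 0.79 for PTGFR, against -0.92 for LHCGR, -0.10 for CYP11A1 and -0.12 for HSD3B1. PECAM1, an endothelial adhesion protein, stood at 87.7, 105 and 89.4 FPKM in SLS and at 49.0, 86.0 and 25.4 FPKM in LLS. Of the other 2 endothelial genes, CDH5 was at 61.8, 70.6 and 47.0 FPKM in SLS and 41.2, 55.3 and 17.3 FPKM in LLS, whereas VWF had the higher mean in LLS, at 87.1, 67.8 and 56.9 FPKM against 89.7, 127 and 42.2 FPKM, and both overlapped. KRT18, a keratin that did not reach the filter and is not among the 33, also did not overlap and stood at 6.30, 0.431 and 0.237 FPKM in SLS and at 0.0967, 0 and 0.151 FPKM in LLS. The adjusted p of the 4 tested markers without overlap was 0.999 by limma, and their relation to miR-34c was not tested.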
